A study of Homo sapiens with 6 samples.

Results

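The EGF receptor genes EGFR and ERBB2 and the ligand genes AREG, EREG, HBEGF, TGFA and NRG1 were followed in TC28a2, a line of immortalised human chondrocytes. These 7 genes were taken by symbol, and all 7 were found among the 28395 Entrez gene IDs of the deposited count table. One group of 3 libraries came from cells transfected with a ZEB1 overexpression vector, and the other group of 3 came from cells that received a control vector. ZEB1 is a zinc finger factor best known as a repressor of epithelial genes, and RNA was collected 48 h after transfection in both groups. Libraries were made by DRUG-seq, a low-cost, high-throughput form of RNA-seq. The share of cells that took up a vector is not given in the sources used here, nor is it stated that replicates were separate cultures, so the p-values may reflect technical spread alone.

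EGFR is the receptor tyrosine kinase that binds amphiregulin (AREG), epiregulin (EREG), heparin-binding EGF-like growth factor (HBEGF) and transforming growth factor alpha (TGFA). ERBB2 has no known ligand of its own and acts as the dimer partner of the other ErbB receptors, while neuregulin 1 (NRG1) binds ERBB3 and ERBB4. The ligands are made as membrane-anchored precursors, and cell surface proteases such as ADAM17 and ADAM10 release their active ectodomains. Receptor activity runs through RAS and ERK and through PI3K and AKT, and it induces early transcripts as well as inhibitors that dampen the receptor. In cartilage this signalling is known to act on growth plate development and on the lubricated surface of the joint.

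The ZEB1 libraries held 1277632, 1621270 and 3316228 counts in replicates 1, 2 and 3, and the control libraries held 5359200 to 5878640. The ZEB1 transcript stood at 12217, 13982 and 6867 CPM (counts per 1e6 of the library total, scaled by TMM factors) in ZEB1 replicates 1, 2 and 3, against 32.4, 20.7 and 21.3 CPM in control replicates 1, 2 and 3. Of 14 chondrocyte markers 1, SOX9, had enough counts to be tested, and ACAN and COL2A1 had 0 counts in the ZEB1 libraries and 13 and 11 in the controls. Summed over 10 epithelial markers the level was 874 to 1016 CPM in the ZEB1 libraries and 927 to 1022 CPM in the controls, nearly all of it KRT8 and KRT18, with KRT5 at 0 in every library. The sum over 8 leukocyte markers was 194 to 283 CPM in the ZEB1 libraries and 198 to 219 CPM in the controls, with PTPRC at 0 counts in the ZEB1 libraries and 2 in the controls and TYROBP at 0 throughout. Of the 5 leukocyte markers tested 0 were called, 2 were higher and 3 lower. SRGN made up most of the sum, at 189 ± 45.1 CPM with the ZEB1 vector and 144 ± 9.34 CPM with the control vector (SD, n = 3 each), a log2 fold change of 0.38 (unadjusted p of 0.0445, edgeR adjusted p of 0.520). LAPTM5 had a log2 fold change of -0.56 (edgeR adjusted p of 0.566), and CORO1A had 5.05 ± 3.82 CPM with the ZEB1 vector and 10.4 ± 1.93 CPM with the control vector (SD, n = 3 each, edgeR adjusted p of 0.660). In both, every ZEB1 library lay below every control. The sum over 8 endothelial markers was 69.0 to 110 CPM in the ZEB1 libraries and 82.3 to 94.2 CPM in the controls, with CDH5 at 0 counts in the ZEB1 libraries and 5 in the controls. Of the 4 endothelial markers tested 0 were called, 3 were higher and 1 lower. PECAM1 had 5.92 ± 2.14 CPM with the ZEB1 vector and 1.44 ± 0.349 CPM with the control vector (SD, n = 3 each), a log2 fold change of 2.04 (unadjusted p of 0.0293, edgeR adjusted p of 0.462), from 38 summed counts in the ZEB1 libraries and 26 in the controls, with every ZEB1 library above every control. Over all 11329 genes tested, 788 had every ZEB1 library above every control and 926 had every ZEB1 library below every control. At an edgeR unadjusted p under 0.05, 660 of these genes were higher and 405 lower. The part of these markers in the results was not tested.

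HBEGF was the 1 member of the 7 whose ZEB1 libraries all lay below the controls, at about 63.2% of the control level in the fit. Such an order of the libraries was found in 8.17% of all genes tested. EGFR, ERBB2 and NRG1 overlapped between the groups, and AREG, EREG and TGFA had too few counts to be tested. Of the 4 members tested, 0 passed an adjusted p of 0.05 in edgeR's quasi-likelihood test with Benjamini-Hochberg adjustment over 11329 genes. That threshold was passed by 0.00883% of all genes tested, which was ZEB1 itself. At an unadjusted p under 0.05 there was 1 member, HBEGF, where 9.40% of all genes had such a p. The members called were also 0 in limma-voom, which called 0.512% of all genes, and 0 in limma-voom with sample quality weights, which called 1.36%. DESeq2 called 10.1% of the 1982 genes that its own filter kept, and this filter left all 4 members without an adjusted p.

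**Figure D1:**
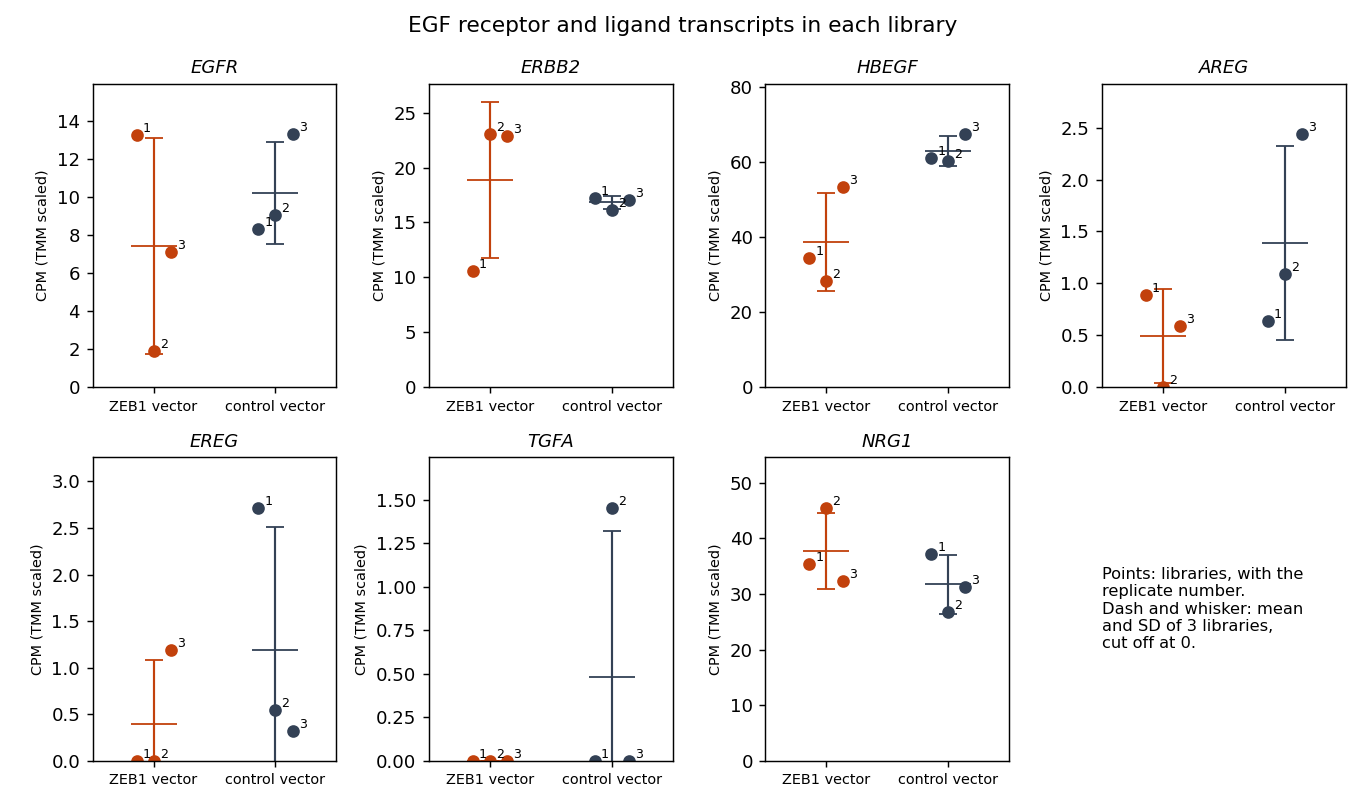
CPM of each of the 7 genes (vertical axes, linear and starting at 0) in the 3 ZEB1 vector libraries, left, and the 3 control vector libraries, right, with the replicate number beside each point and the mean and SD as dash and whisker. HBEGF is the panel with counts in every library in which the 2 groups do not overlap, at 28.2 to 53.4 CPM with the ZEB1 vector against 60.3 to 67.4 CPM with the control vector.

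Among the receptors, EGFR is Entrez gene 1956 and lies at 55019017 to 55211628 of chromosome 7 in GRCh38.p14, the build of all positions given here. It had 15, 3 and 24 counts in ZEB1 replicates 1, 2 and 3, against 52, 50 and 82 counts in control replicates 1, 2 and 3. These stood for 13.3, 1.92 and 7.12 CPM in the ZEB1 libraries and 8.31, 9.08 and 13.3 CPM in the controls. ZEB1 replicate 1 lay level with the highest control, while ZEB1 replicates 2 and 3 lay below all controls, so the groups overlapped. The means were 7.44 ± 5.68 CPM with the ZEB1 vector and 10.2 ± 2.70 CPM with the control vector (SD, n = 3 each). In edgeR the log2 fold change was -0.51, with SE 0.57, a 95% interval of -1.71 to 0.69 and an adjusted p of 0.849. The 3 counts of ZEB1 replicate 2 carried much of this difference: without that library the log2 fold change was -0.09, and without ZEB1 replicate 1 it was -1.05. With this spread between libraries, a change of the size seen in the fit was not detectable. The summed share of EGFR was 0.627 of the control share with the ZEB1 vector. Its exact 95% counting interval, 0.437 to 0.881, leaves out 1 but covers counting error only.

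ERBB2 (Entrez 2064, chromosome 17, 39688094 to 39728658) had 12, 36 and 77 counts in ZEB1 replicates 1, 2 and 3, against 108, 89 and 105 in control replicates 1, 2 and 3. On the CPM scale the ZEB1 libraries stood at 10.6, 23.0 and 22.8 and the controls at 17.3, 16.2 and 17.1. ZEB1 replicate 1 was the lowest of all 6 libraries and ZEB1 replicates 2 and 3 were the highest, on either side of controls that lay close together. The log2 fold change was 0.20 (SE 0.37, 95% interval -0.56 to 0.96, edgeR adjusted p of 0.916). Leaving out ZEB1 replicate 1 gave 0.44, leaving out ZEB1 replicate 2 gave 0.07 and leaving out ZEB1 replicate 3 gave 0.02. The gene shares 571 exonic bases with MIEN1 on the opposite strand and 194 with PGAP3, also on the opposite strand, in GENCODE v29. In the RefSeq positions MIEN1 starts at 39728510, within ERBB2, while PGAP3 ends at 39688057 and does not overlap ERBB2. Since the strand setting and the annotation release of the counting are not given, reads from any shared bases cannot be told apart. MIEN1 had 52.7 ± 5.09 CPM with the ZEB1 vector and 57.1 ± 8.39 CPM with the control vector (SD, n = 3 each), a log2 fold change of -0.12 with an edgeR adjusted p of 0.916. EGFR likewise shares 186 exonic bases with EGFR-AS1, which had 0 counts in the table.

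HBEGF, a ligand of EGFR and ERBB4 that is shed from the cell surface, was the best counted member. The gene (Entrez 1839) spans 140332843 to 140346603 of chromosome 5 and had 39, 44 and 180 counts in ZEB1 replicates 1, 2 and 3, against 383, 332 and 415 counts in control replicates 1, 2 and 3. In CPM these were 34.5, 28.2 and 53.4 in the ZEB1 libraries and 61.2, 60.3 and 67.4 in the controls. The highest ZEB1 library, replicate 3, was nearer to the lowest control than to either of the other ZEB1 libraries. The means were 38.7 ± 13.1 CPM with the ZEB1 vector and 63.0 ± 3.89 CPM with the control vector (SD, n = 3 each). This gave a log2 fold change of -0.66 (SE 0.25), with an unadjusted p of 0.0139 and an edgeR adjusted p of 0.363, so the difference did not pass over all genes. Its 95% interval, which is not adjusted for the number of genes, ran from -1.17 to -0.15. In bulk RNA, fewer cells with a transcript and less of it per cell cannot be told apart. Of all genes tested, 8.17% likewise had every ZEB1 library below every control, and 3.57% were lower at an unadjusted p under 0.05.

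The HBEGF difference followed the libraries unevenly. Without ZEB1 replicate 3 the log2 fold change was -1.03 with an edgeR adjusted p of 0.0280, and HBEGF was then among the 0.984% of 12095 genes called lower. With ZEB1 replicate 3 as the lone ZEB1 library, assumed to vary as the controls do, it was -0.24 (unadjusted p of 0.300). On leaving out ZEB1 replicate 1, ZEB1 replicate 2 or a single control it was -0.70 to -0.48, with an unadjusted p of 0.0642 without ZEB1 replicate 2 and 0.0514 without control replicate 3. Thinning every library to 1277632 counts, in a single random draw, gave -0.46 (edgeR unadjusted p of 0.123). In the same draw the log2 fold change was -0.12 for EGFR and 0.45 for ERBB2. ZEB1 replicates 1 and 2, the lowest in HBEGF, were also the shallowest libraries and those with the most ZEB1 transcript, so that depth cannot be told apart from the amount of ZEB1. Within libraries, which needs no scaling, there were 3.25, 1.22 and 2.34 HBEGF counts per ERBB2 count in ZEB1 replicates 1, 2 and 3, against 3.55, 3.73 and 3.95 in control replicates 1, 2 and 3. The same ratio to NRG1 was 0.975, 0.620 and 1.65 in the ZEB1 libraries and 1.64, 2.26 and 2.16 in the controls. The ratio to ERBB2 did not overlap between the groups, by a small margin. The 3.25 of ZEB1 replicate 1, near the 3.55 of control replicate 1, rests on 12 ERBB2 counts. How many other genes have such an order relative to ERBB2 was not tested. The ratio to NRG1 overlapped, by a small margin, at ZEB1 replicate 3. Per EGFR count there were 2.60, 14.7 and 7.50 HBEGF counts in ZEB1 replicates 1, 2 and 3, against 7.37, 6.64 and 5.06 in control replicates 1, 2 and 3. Relative to EGFR, HBEGF was thus below every control in ZEB1 replicate 1 and above every control in ZEB1 replicates 2 and 3, with the value of replicate 2 resting on 3 EGFR counts.

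**Figure D2:**
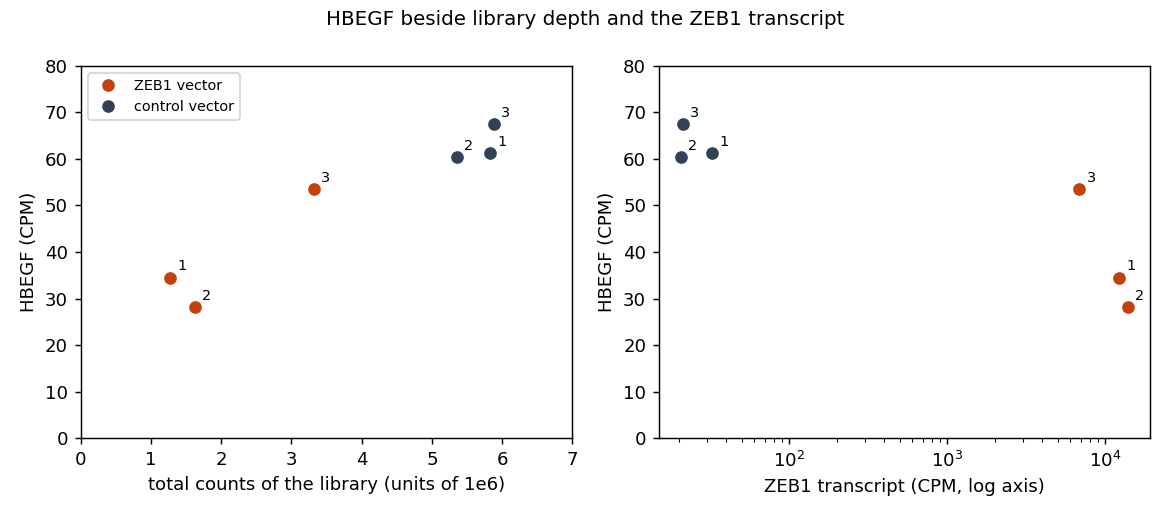
HBEGF level in CPM (vertical axes, from 0) against the total counts of each library in units of 1e6, left, and against the ZEB1 transcript in CPM on a log axis, right, for the 3 ZEB1 vector and 3 control vector libraries, with the replicate number beside each point. ZEB1 replicates 1 and 2, at 34.5 and 28.2 CPM of HBEGF, have the fewest counts and the most ZEB1 transcript.

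AREG and EREG lie close to each other on chromosome 4. Both encode EGFR ligands, of which amphiregulin binds heparin and epiregulin also activates ERBB4. AREG (Entrez 374, 74445136 to 74455005) had 1, 0 and 2 counts in ZEB1 replicates 1, 2 and 3, against 4, 6 and 15 counts in control replicates 1, 2 and 3. The summed share of AREG was 0.330 of the control share with the ZEB1 vector, with an exact 95% counting interval of 0.0637 to 1.08. EREG (Entrez 2069, 74365145 to 74388749) had 0, 0 and 4 counts in the ZEB1 libraries and 17, 3 and 2 counts in the controls, most of them in control replicate 1. Its summed ratio was 0.499 with a counting interval of 0.125 to 1.47. At the control share the ZEB1 libraries would have held 9.10 AREG and 8.01 EREG counts, where 3 and 4 were seen. Both intervals include 1 and cover counting error only, so a difference of the size seen was not detectable in either ligand at this depth.

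TGFA (Entrez 7039, chromosome 2, 70447284 to 70553826) had 0 counts in every ZEB1 library and 0, 8 and 0 counts in control replicates 1, 2 and 3. All 8 counts came from control replicate 2. A floor of 3 counts over the summed ZEB1 libraries is 0.483 counts per 1e6, above the 0.469 counts per 1e6 of the summed controls, so no fold is given. Neither group can be said to lack the transcript at this depth.

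NRG1 (Entrez 3084, chromosome 8, 31639245 to 32774046), the ligand of ERBB3 and ERBB4, was well counted in both groups. It had 40, 71 and 109 counts in ZEB1 replicates 1, 2 and 3, against 233, 147 and 192 counts in control replicates 1, 2 and 3. These were 35.4, 45.4 and 32.3 CPM in the ZEB1 libraries and 37.2, 26.7 and 31.2 CPM in the controls, and control replicate 1 lay above ZEB1 replicates 1 and 3. The means were 37.7 ± 6.85 CPM with the ZEB1 vector and 31.7 ± 5.28 CPM with the control vector (SD, n = 3 each). In edgeR its log2 fold change was 0.24 (SE 0.27, adjusted p of 0.845), and the 95% interval of -0.32 to 0.80 leaves room for a change in either direction. Its value was 0.08 without ZEB1 replicate 2 and 0.37 without control replicate 1. The NRG1 locus also holds 6 other annotated RefSeq genes, of which NRG1-IT1 had 3 counts.

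**Figure D3:**
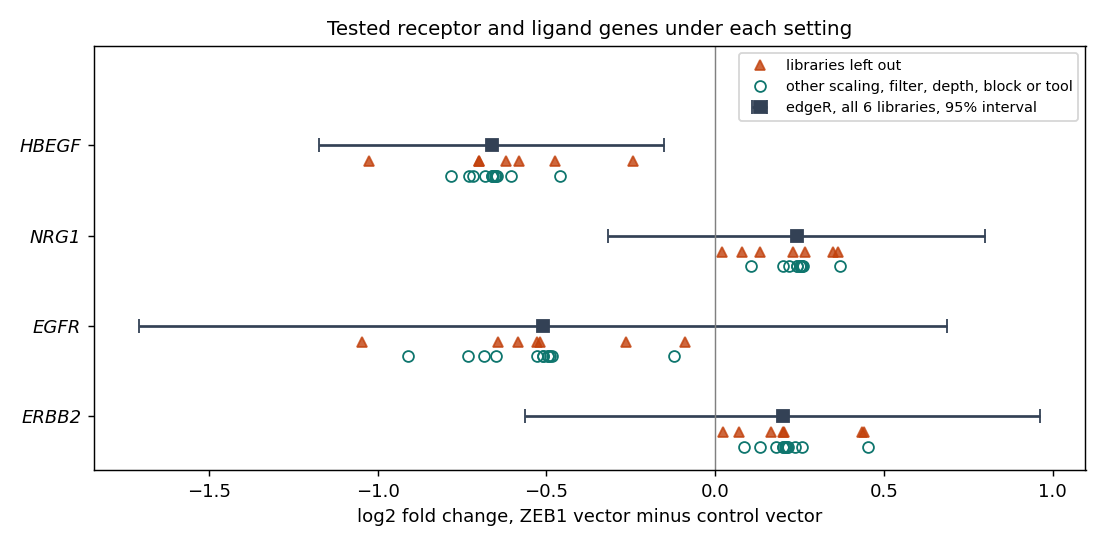
Log2 fold change of the 4 tested genes, ZEB1 vector minus control vector (horizontal axis), with the edgeR value from all 6 libraries and its 95% interval as squares and bars, values with libraries left out as triangles, and values under the other settings as open circles. Each of the 4 genes keeps its sign in all 19 alternatives, which reuse the same libraries and are not replication. HBEGF runs from -1.03 to -0.24, and EGFR, ERBB2 and NRG1 have intervals that span 0.

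ZEB1 is known to bind E2-box letters, CAGGTG or CAGGTA, and these were searched on both strands in the RefSeq windows of 250 bases before and 50 after each annotated start (GRCh38.p14). Of the 6 members with a window, 4 held a match in 5 of 8 windows. Over all 35116 windows the share with either motif was 28.1%, with 20.6% for CAGGTG and 9.83% for CAGGTA, so that matches are common. The windows of EGFR and ERBB2 held none of these letters. The 250 bases before the start are shown for the ligand with the non-overlapping groups and for the nearby pair AREG and EREG, from GRCh38.p14 as RefSeq gives them, 5′ to 3′ on the gene's strand, with the motif letters in capitals. HBEGF is at chr5:140346604-140346853 on the minus strand, AREG at chr4:74444886-74445135 and EREG at chr4:74364895-74365144, both on the plus strand.
HBEGF: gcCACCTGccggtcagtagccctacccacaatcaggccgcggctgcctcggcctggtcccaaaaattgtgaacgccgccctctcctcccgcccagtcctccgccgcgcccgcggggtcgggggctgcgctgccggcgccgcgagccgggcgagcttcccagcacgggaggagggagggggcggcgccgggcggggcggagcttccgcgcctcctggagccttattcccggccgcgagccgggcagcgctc
AREG: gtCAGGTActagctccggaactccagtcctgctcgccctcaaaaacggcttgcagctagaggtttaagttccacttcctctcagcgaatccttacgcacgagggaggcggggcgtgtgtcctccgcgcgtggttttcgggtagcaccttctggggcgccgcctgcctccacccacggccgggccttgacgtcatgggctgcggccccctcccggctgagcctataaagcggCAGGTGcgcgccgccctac
EREG: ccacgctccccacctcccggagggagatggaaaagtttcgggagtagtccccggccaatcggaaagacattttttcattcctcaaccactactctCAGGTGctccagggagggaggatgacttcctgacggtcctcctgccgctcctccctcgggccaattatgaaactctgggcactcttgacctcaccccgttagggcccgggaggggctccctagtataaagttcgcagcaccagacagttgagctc
HBEGF carried CACCTG, the reverse complement of CAGGTG, with its first base at position -248, counted back from the start. AREG carried CAGGTA at -248, CAGGTG at -19 and, past the stretch shown, CACCTG at 12, and EREG carried CAGGTG at -155. The 2 TGFA windows also held matches, 1 in one window and 2 in the other. A match describes letters and was not tested as a binding site. The G and C content of the stretches shown was 76.4% for HBEGF, 65.2% for AREG and 58% for EREG.

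The other receptors and ligands of the family were near the limit of counting. ERBB3, the main partner of ERBB2 for NRG1, had 11 summed counts with the ZEB1 vector and 32 with the control vector, and ERBB4 had 6 and 0, all from 1 ZEB1 library. Of EGF, BTC, EPGN, NRG2, NRG3 and NRG4, 0 of 6 had enough counts to be tested, and BTC had 0 counts in every library. EGF, named after its counts were seen, had 0 counts in each ZEB1 library and 15, 4 and 2 in control replicates 1, 2 and 3. Of its 21 control counts 15 came from control replicate 1, and no fold is given. EPGN had 6, 0 and 2 counts in ZEB1 replicates 1, 2 and 3 and 0 in each control. NRG4 had 7 summed counts with the ZEB1 vector and 3 with the control vector, NRG2 had 9 and 38, and NRG3 had 2 and 0. The 7 NRG4 counts all came from ZEB1 replicate 3.

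Genes that act on the ligands at the cell surface showed no common direction. Of 7 genes of ligand shedding and trafficking 6 were tested, 3 higher and 3 lower, with 0 called and a median log2 fold change of -0.07, beside -0.01 over all genes tested. The sheddase ADAM10 had 65.9 ± 23.9 CPM with the ZEB1 vector and 53.2 ± 7.10 CPM with the control vector (SD, n = 3 each), a log2 fold change of 0.27. RHBDF2, which encodes the iRhom2 protein that carries ADAM17 to the surface, had -0.60 (SE 0.43), and the metalloendopeptidase NRDC, which enhances HBEGF shedding, had -0.22 (SE 0.17). The median of this list was 0.03 without control replicate 1, -0.11 without ZEB1 replicate 1 and -0.15 without control replicate 3.

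Downstream of the receptors, 0 of the 17 tested adaptors and enzymes were called, with 9 higher and 8 lower and a median of 0.04, a sign that held in 13 of 19 alternatives and turned to -0.08 without ZEB1 replicate 2 and -0.03 without ZEB1 replicate 3. PTPN11, the SHP2 phosphatase that transmits receptor signals to RAS, had a log2 fold change of 0.16, and the adaptor CRK had -0.01. PLCG1, a phospholipase recruited by EGFR, had -0.46 and the ubiquitin ligase CBL, which marks EGFR for degradation, had -0.48. In the RAS to ERK cascade 10 of 12 genes were lower and 2 higher, with a median of -0.11 and 0 called. Single libraries decided the size of that median, which was -0.01 without ZEB1 replicate 1, -0.17 without ZEB1 replicate 2, -0.25 without ZEB1 replicate 3 and -0.22 without control replicate 3. HRAS had 141 ± 10.4 CPM with the ZEB1 vector and 177 ± 13.8 CPM with the control vector (SD, n = 3 each), a log2 fold change of -0.34 (SE 0.16, edgeR adjusted p of 0.520). The kinase genes MAP2K1 and MAP2K2 had -0.41 and -0.09. In the PI3K to AKT branch 7 genes were higher and 5 lower, with a median of 0.02 that kept its sign in 16 of 19 alternatives and was -0.03 without control replicate 1 and 0.12 without ZEB1 replicate 1 or control replicate 3. RICTOR, a subunit of the mTORC2 kinase complex, had a log2 fold change of 0.71, the kinase gene AKT1 had -0.22 and PDPK1, whose product activates AKT kinases, had -0.12.

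Most receptor inhibitors and early transcripts were lower, with 0 called in either list. Over all genes tested 51.5% had a negative log2 fold change. Of 18 tested inhibitors and feedback proteins 14 were lower and 4 higher, with a median log2 fold change of -0.20. That median was -0.12 without ZEB1 replicate 1 and -0.45 without ZEB1 replicate 3. DUSP6, the ERK phosphatase, had 81.3 ± 12.6 CPM with the ZEB1 vector and 128 ± 22.5 CPM with the control vector (SD, n = 3 each), a log2 fold change of -0.64 (SE 0.19, edgeR adjusted p of 0.235). LRIG1, a membrane protein that promotes loss of ErbB receptors, had -1.03 (SE 0.48, edgeR adjusted p of 0.520). PTPN1, a phosphatase that acts on EGFR, had 0.05. Of 19 tested early transcripts of receptor and ERK signalling 16 were lower and 3 higher, with a median of -0.36. This median was -0.26 without control replicate 3 and -0.44 without ZEB1 replicate 3. Scaling by library size alone gave -0.50 and itself moved the median of all genes to -0.14. Of these 19 transcripts 7 were lower at an unadjusted p under 0.05, as were 3 of the 18 inhibitors, beside 3.57% of all genes tested. FOSL1 and IER3 had log2 fold changes of -0.66 and -0.55, PLAUR, the urokinase receptor gene, had -0.48 and CCND1, which encodes cyclin D1, had -0.36. The 3 higher transcripts, named after their values were seen, were FOS at 0.78 (SE 0.77), EGR1 at 0.11 (SE 0.47) and ETV5 at 0.09 (SE 0.23). Since genes of both lists were known to lie low in these libraries when the lists were written, the counts are a description and not separate evidence.

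**Figure D4:**
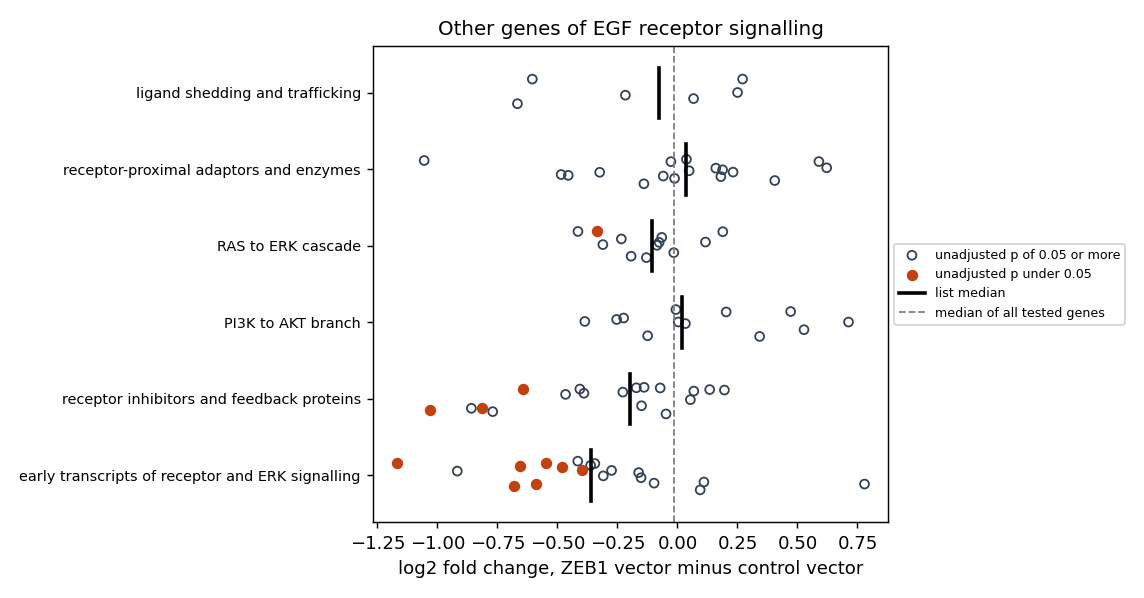
Log2 fold change of each tested gene, ZEB1 vector minus control vector (horizontal axis), in 6 lists of EGF receptor signalling genes, with list medians as black bars and the median of all tested genes, -0.01, as a dashed line. Filled points have an unadjusted p under 0.05, of which the early transcripts hold 7, the inhibitors 3 and the RAS to ERK cascade 1, all lower with the ZEB1 vector, and no gene shown passed the adjusted threshold.

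The profiles nearest to HBEGF and NRG1 were sought among 5630 other genes that averaged 100 counts or more per library, by the root mean square difference of log2 CPM over the 6 libraries, each gene relative to its own mean. Nearest to HBEGF were XAB2, a protein of splicing and transcription-coupled repair, at 0.09 and the scavenger receptor family gene SCARF2 at 0.10, where the median gene was at 0.50. Their log2 fold changes were -0.58 each. Nearest to NRG1 were the linker histone gene H1-3 and the scaffold gene DCAF7, both at 0.05, where the median gene was at 0.34. The nearest of 5630 genes over only 6 libraries lies close by selection, and shared regulation was not tested. HBEGF and NRG1 differed from each other by 0.65 on this measure, more than the median gene differed from either.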

How the data were processed

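The authors deposited raw counts per Entrez gene ID, 1 column per library. Per the submitters' processing notes HISAT2, Subread and featureCounts were used with GRCh38, with no versions named. The strand setting, the annotation release and the handling of molecular identifiers are each not given in the sources used here. Of the IDs, 27745 were matched to a RefSeq symbol (GRCh38.p14) and 650 were not. Total counts per library are given above, and log2 fold changes had a median SE of 0.33, or 0.22 for genes averaging 100 counts or more.

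The test was that of edgeR 4.0.16, run in R 4.3.3 (quasi-likelihood, robust, TMM, filterByExpr, group only, two-sided, Benjamini-Hochberg over all tested genes). SEs and intervals of log2 fold changes follow from the F statistic and are approximate. Log2 CPM used a prior count of 2. Counting intervals are exact conditional binomial intervals of summed counts, and if reads are not collapsed to molecules they are too narrow. Chi-square per degree of freedom was 6.30 to 11.4 between library pairs of 1 group and 8.94 to 22.6 between pairs across groups, so no library was a copy of another. ZEB1 replicate 3 had 8.94 with control replicate 2, 8.69 with ZEB1 replicate 2 and 11.4 with ZEB1 replicate 1. The 19 alternatives include DESeq2 1.42.0 and limma 3.58.1. The steps were checked on simulated data.

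The 7 genes, the 14 lists (all 144 entries found) and the alternatives were chosen with earlier results of these data known. The naming rule takes, from each list, called genes, the 2 tested genes with the smallest p and the 2 with the highest mean count. A gene that this rule names is not reported here.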

Additional observations from a re-analysis of the deposited data

How the results depend on the processing

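The count of genes called over the whole table, 1 in the fit described above, was 127 with no filter on low counts, 201 in DESeq2, 58 in limma-voom, 154 in limma-voom with quality weights and 2 with ZEB1 replicate 3 as the only ZEB1 library. It was 0 in edgeR with ZEB1 left out of the table, where 1065 genes had an unadjusted p under 0.05. On leaving out single libraries the count of genes called was 1 to 409 and the count of members called was 0 to 1, with both upper values without ZEB1 replicate 3. The cause was not tested. Members called were 0 under the other 18 alternatives, and in DESeq2 none of the 4 had an adjusted p.

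The 19 alternatives reuse the same 6 libraries or some of them, so a result kept across them is not replication. HBEGF had an unadjusted p under 0.05 in 15 of 19 alternatives. EGFR was negative in all 19 (-1.05 to -0.09), and ERBB2 (0.02 to 0.45) and NRG1 (0.02 to 0.37) were positive in all 19. With the replicate number as a block (replicate block) 1 gene was called, HBEGF had -0.73 (adjusted p of 0.414) and the median log2 fold change of the inhibitors was -0.34. Deviations of same-numbered libraries correlated at -0.032, -0.0095 and 0.0087, and 0 of 3 ZEB1 libraries correlated best with their own number, so the numbers were not taken to pair the samples. Depth limits what can be said of AREG, EREG and TGFA, since 3 counts equal 0.890 to 2.65 CPM in the ZEB1 libraries and 0.479 to 0.545 CPM in the controls.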
